A study of Saccharomyces cerevisiae with 30 samples.

Results

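The stretch of chromosome III described here is held by 1297 of the 60303 running windows of the genome, each 2 kb long and stepped by 200 bp. They were taken by position, with window midpoints from 30000 to 290000 bp of the R64 assembly of *Saccharomyces cerevisiae*, and 3 further windows of this interval were left out because they held no read in any library. The interval carries the origins ARS305, ARS306, ARS307, ARS309 and ARS310 and the mating type locus MAT, and ARS308 at the centromere CEN3 and ARS315 were also called inside it. The silent mating type cassettes lie outside it, HML with HMLALPHA2 and HMLALPHA1 between 12386 and 13809 bp and HMR with HMRA2 and HMRA1 between 293179 and 294321 bp.

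An origin of replication, called an ARS in yeast, fires at most once per S phase and sends a fork in each direction. Hydroxyurea (HU) depletes nucleotides and stalls forks close to the origins that fired first, and the checkpoint kinase Rad53 then holds back later origins and keeps stalled forks able to restart. ARS305, ARS306 and ARS307 are among the best studied early firing origins of this yeast, and TrAEL-seq ligates an adaptor to free DNA 3′ ends and counts them, so that its signal marks where forks stood in the population.

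The cells were arrested in G1 with alpha factor, released into 200 mM HU and collected in HU (0 min, the HU block) or 20 and 40 min after HU was washed away. The 4 strains were the triple mutant *mrc1-AQ cdc45-2A pol1-1A*, the double mutant *mrc1-AQ cdc45-2A*, the single mutant *pol1-1A* and the wild type, with 2 libraries per strain and time. Mrc1, a checkpoint mediator that travels with the fork, Cdc45, a part of the replicative helicase, and Pol1, the catalytic subunit of DNA polymerase alpha that starts lagging strand fragments, each bind Rad53, and the mutations were made against these contacts. Asynchronous wild type cells, in 2 preparations that each went into 3 of the 6 pools, gave 6 spike-in libraries. The study describes the repeats as biological, the labels do not say more of how they were grown, and p-values measure the spread between these libraries.

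The 24 HU libraries held 2974768 to 10460920 mapped reads and the 6 spike-ins 317539 to 1333846, and a 2 kb window of the interval held a median of 153 to 1367 reads in the HU libraries. Values are depth-scaled read counts (RPM). The interval held 3.37% and 3.42% of the in-window reads of the triple mutant in HU, 3.54% and 3.63% in the double mutant, 3.57% and 4.31% in *pol1-1A* and 3.89% and 4.18% in the wild type, against 1.94 to 2.24% in asynchronous cells. At 40 min all 4 strains lay between 2.25 and 2.61%. The share of the interval in HU was thus above the asynchronous range in every library.

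In the wild type HU block each origin stood between a pair of peaks, and the origin was placed at their midpoint: 39201 bp for ARS305, 74601 bp for ARS306, 109201 bp for ARS307, 114701 bp for ARS308, 132201 bp for ARS309, 165701 bp for ARS310 and 224801 bp for ARS315. The names were given from known map positions, since no origin list was at hand. ARS307 and ARS308 shared the peak at 112001 bp between them, so their 10 kb windows overlap and their values are not independent. ARS310 was found only with a lower requirement for peak height, because its right peak was small. Its pair was the most one-sided of the 7 in the wild type, with mean heights of 794 RPM on the left and 204 RPM on the right.

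**Figure D1:**
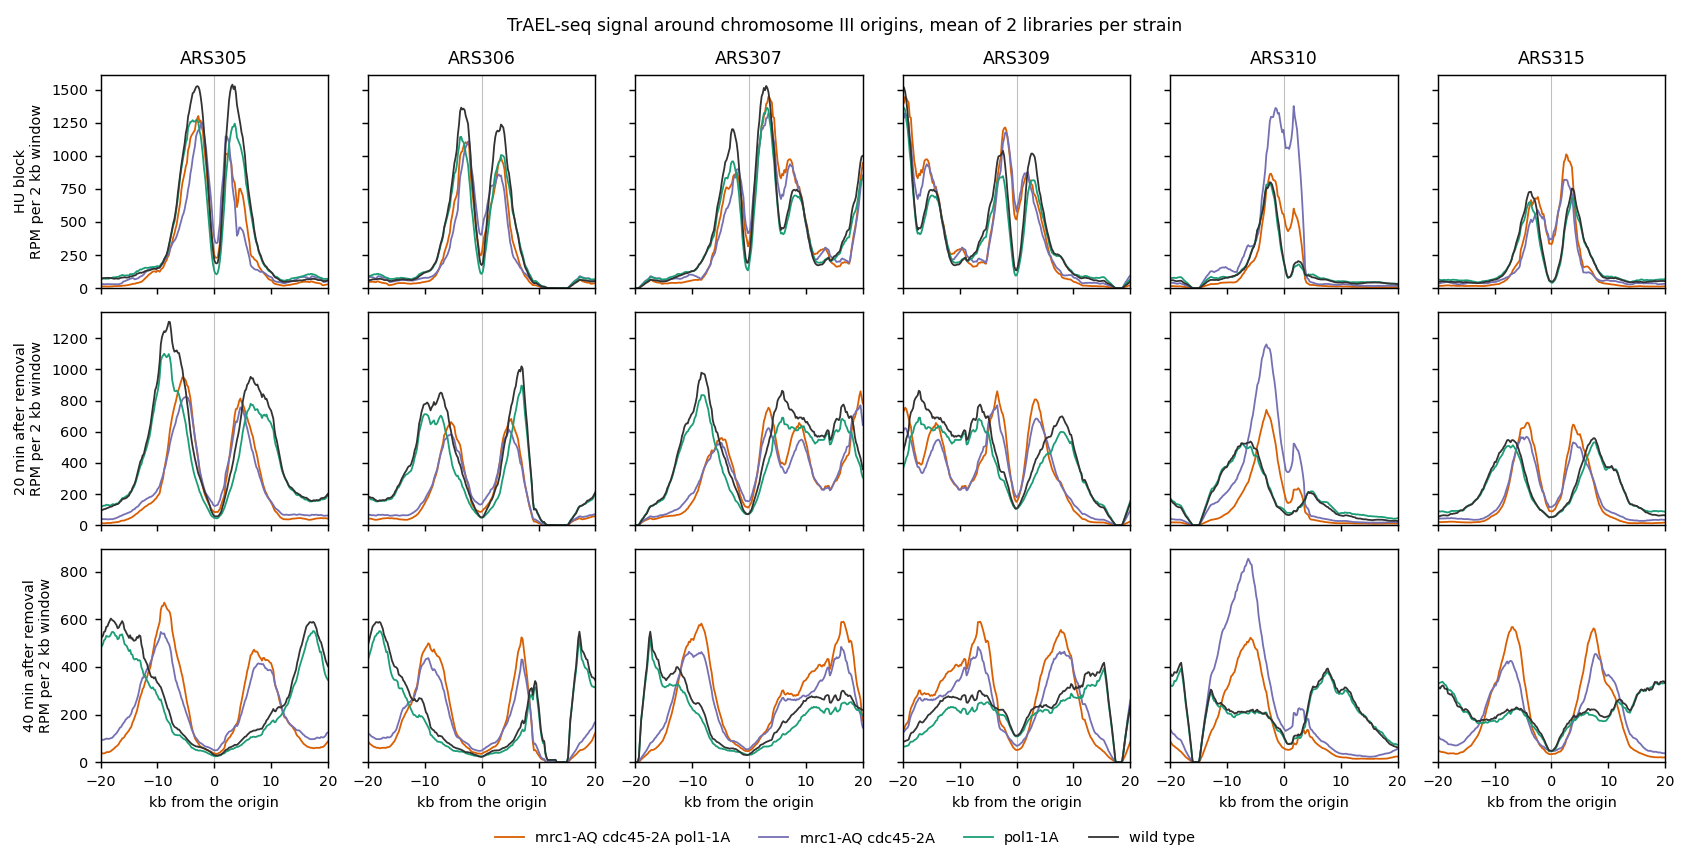
TrAEL-seq signal (RPM per 2 kb window, linear axes, 1 scale per row) within 20 kb of 6 origins, with lines for the mean of 2 libraries of each strain and rows for the HU block, 20 and 40 min after removal. Peaks flank each origin in HU, those of the double and triple mutants stay closer by 40 min than those of *pol1-1A* and the wild type, which move outward, and the double mutant (purple) stands above the other strains just left of ARS310 at all 3 times; ARS308 lies 5.5 kb right of ARS307 in its panel, and the flat stretches at 0 are windows with no reads in the deposited table.

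At the early origins ARS305, ARS306 and ARS307 no difference between strains passed the test in the HU block, and by 40 min more signal was left at the origins in the double mutant than in the wild type. The signal in 10 kb around ARS305 in HU was 4488 and 3945 RPM in the triple mutant, 3881 and 4277 RPM in the double mutant, 3865 and 4830 RPM in *pol1-1A* and 4813 and 6004 RPM in the wild type. The double mutant libraries were both below the wild type libraries here, with a log2 change of -0.40 (SE 0.17) that did not pass the test (limma, adjusted p = 0.0610). For ARS306 the change was -0.31 and for ARS307 -0.16, and neither passed either (limma adjusted p = 0.157 and 0.468). At 40 min ARS305 had 517 and 473 RPM in the triple mutant, 456 and 591 RPM in the double mutant, 216 and 266 RPM in *pol1-1A* and 280 and 303 RPM in the wild type. The double mutant did not overlap with the wild type at this time, and its log2 change was 0.82 (SE 0.17, limma adjusted p = 1.96e-05).

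ARS306 and ARS307 behaved alike at 40 min. ARS306 held 401 and 483 RPM in the double mutant, against 228 and 224 RPM in the wild type (log2 change 0.96, SE 0.18, limma adjusted p = 1.06e-06). ARS307 held 461 and 550 RPM in the double mutant, against 304 and 316 RPM in the wild type (log2 change 0.69, SE 0.17, limma adjusted p = 0.000347). These wild type values lay below those of asynchronous cells, which averaged 511 and 552 RPM at ARS306 in the 2 preparations and 517 and 682 RPM at ARS307. The double mutant values also lay below both preparations at ARS306. At ARS307 its 461 RPM lay below both preparations and its 550 RPM between them. Under quantile normalization the change fell to 0.12 at ARS305 and 0.10 at ARS306, neither past the test, and to -0.052 at ARS307, while edgeR and DESeq2 kept all 3 as higher.

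All 7 origin windows lost signal between the HU block and 20 min and between the HU block and 40 min in every strain, where 67.1% of the 146 origin windows of the genome passed the test at 20 min in the triple mutant, 67.8% in the double mutant, 95.2% in *pol1-1A* and 97.3% in the wild type. At 40 min against the HU block these shares were 99.3% in the triple mutant, 99.3% in the double mutant, 86.3% in *pol1-1A* and 86.3% in the wild type. In the double mutant the log2 change at 40 min ran from -3.11 at ARS307 to -1.78 at ARS310, and in the wild type it was largest at ARS306 (-4.34), ARS305 (-4.22) and ARS307 (-3.96) and smallest at ARS310 (-1.19) (limma, highest adjusted p of these 2 strains 2.09e-11). The order within the wild type thus put the 3 leftmost origins furthest down. With edgeR or DESeq2 on the origin windows alone, whose scaling takes most windows as unchanged, 4 of the 7 passed in the double mutant, 1 of them as higher.

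The trough over the early origins was less deep in the double mutant. In the 2 kb centred on ARS305 in HU the triple mutant had 307 and 196 RPM, the double mutant 355 and 403 RPM, *pol1-1A* 121 and 142 RPM and the wild type 199.3 and 228 RPM. At ARS306 the same values were 330.0 and 187 RPM in the triple mutant, 368 and 440 RPM in the double mutant, 107 and 109.4 RPM in *pol1-1A* and 169 and 180 RPM in the wild type. At both origins the double mutant lay above the wild type in both replicates, and the 1 kb windows that hold these centres, at 39001 to 40000 bp and 74001 to 75000 bp, were called higher in the double mutant.

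ARS308, which maps to the centromere, had 2253 and 2314 RPM in 10 kb in the double mutant at 20 min, against 3047 and 2921 RPM in the wild type (log2 change -0.39, SE 0.13, limma adjusted p = 0.00401). It was the only 1 of the 7 origins called lower in the double mutant at that time by limma, while edgeR, DESeq2 and quantile normalization also called ARS305, ARS306 and ARS307 lower. At 40 min the order was the other way round, with 977 and 1044 RPM in the double mutant and 781 and 681 RPM in the wild type (log2 change 0.47, SE 0.13, limma adjusted p = 0.000909), a call lost without wild type replicate 2 (adjusted p = 0.0561). In the 2 kb centred on ARS308 the wild type mean rose from 482 RPM in HU to 825 RPM at 20 min. The double mutant mean there fell from 704 to 395 RPM. At 20 min the highest wild type signal right of ARS307 stood 5400 and 6200 bp from ARS307, inside the 10 kb window of ARS308. The part of this neighbour in the calls at ARS308 was not tested. In asynchronous cells ARS308 had the highest 10 kb signal of the 7 origins in both preparations, 694 and 879 RPM. ARS309 had 2575 and 2565 RPM in the double mutant at 20 min, against 1829 and 1514 RPM in the wild type (log2 change 0.65, SE 0.16, limma adjusted p = 8.05e-05). This call was lost and its direction turned with edgeR (-0.093, adjusted p = 0.285) and DESeq2 (-0.13, adjusted p = 0.145). At 40 min ARS309 had 756 and 829 RPM in the double mutant, against 917 and 1045 RPM in the wild type (log2 change -0.32, limma adjusted p = 0.0719).

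ARS310 was the origin of the 7 that differed most between the double mutant and the wild type in HU and at 20 min, and between the triple and the double mutant at all 3 times. In the HU block it gave 2486 and 2299 RPM in 10 kb in the triple mutant, 4346 and 4504 RPM in the double mutant, 1443 and 1970.3 RPM in *pol1-1A* and 1632 and 1900.4 RPM in the wild type. The double mutant therefore lay clear of every other strain, with a log2 change over the wild type of 1.33 (SE 0.17, limma adjusted p = 1.50e-12), the fourth highest of the 146 origin windows. It was the only 1 of the 7 origins called in this comparison, in which 34.2% of all origin windows were called. At 20 min ARS310 held 3007 and 3078 RPM in the double mutant, against 937 and 861 RPM in the wild type (log2 change 1.76, SE 0.17, limma adjusted p = 1.76e-22). At 40 min it held 1261 and 1319 RPM in the double mutant, against 697 and 859 RPM in the wild type (log2 change 0.74, SE 0.17, limma adjusted p = 0.000141).

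The one-sided shape of ARS310 in HU also differed between strains. The highest points within 5 kb of the origin in HU were 891 and 819 RPM on the left and 589 and 515 RPM on the right in the triple mutant, a left to right ratio of 1.51 and 1.59. In the double mutant they were 1316 and 1388 RPM on the left and 1263 and 1233 RPM on the right, with ratios of 1.04 and 1.13. In *pol1-1A* the ratio was 3.31 and 4.95, and in the wild type, with 714 and 877 RPM on the left and 188 and 219 RPM on the right, it was 3.80 and 4.00. In HU the right side of ARS310 was thus near the left side in the double mutant only, intermediate in the triple mutant and low in both other strains. Within the same 5 kb this did not hold later. At 20 min the mean ratio was 3.05 in the triple mutant, 2.33 in the double mutant, 2.01 in *pol1-1A* and 2.37 in the wild type. At 40 min it was 3.63, 3.16, 0.74 and 0.73 in the same order. These later ratios need not compare peaks, since maxima had left the 5 kb read. The mean left maximum stood at 6700 bp in *pol1-1A* and 6200 bp in the wild type at 20 min. At 40 min it stood at 5900 bp in the triple mutant, 6400 bp in the double mutant and 18500 bp in both other strains. The right maximum then stood at 7700 bp in *pol1-1A* and 7500 bp in the wild type. For comparison, the ratio at ARS309 in HU was 1.27 and 1.38 in the double mutant and 1.01 and 1.02 in the wild type. The largest HU change of the interval lay at the origin itself, in the trough between the wild type peaks, in the 1 kb window from 166001 to 167000 bp over NPP1, a nucleotide pyrophosphatase gene: 484 and 444 RPM in the double mutant, against 18.2 and 29.2 RPM in the wild type (log2 change 4.27, SE 0.45, limma adjusted p = 3.00e-07).

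Between the triple and the double mutant ARS310 was called lower at all 3 times, and none of the 6 other origins was called at any time. The log2 change of the triple over the double mutant at ARS310 was -0.89 in HU (SE 0.17, limma adjusted p = 5.71e-05), -0.82 at 20 min (adjusted p = 0.000414) and -0.74 at 40 min (adjusted p = 0.00353). At 20 min the triple mutant had 1816 and 1637 RPM and the double mutant 3007 and 3078 RPM, and at 40 min the triple mutant had 816 and 735 RPM and the double mutant 1261 and 1319 RPM. Among the 146 origin windows, of which only ARS310 was added at a lower prominence, ARS310 had the lowest log2 change of this comparison at each of the 3 times, where 1.37% were called in HU, 0.685% at 20 min and 2.05% at 40 min. With signal scaled to the reads inside the windows, the adjusted p was 0.0668 at 20 min and 0.0830 at 40 min, and without replicate 2 of the triple mutant it was 0.0951 and 0.121.

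The *pol1-1A* mutation alone called none of the 7 origins at any time, where 0.0% of origin windows were called in HU, 0.0% at 20 min and 0.685% at 40 min (limma, 0, 4 and 1 of the 7 at an unadjusted p under 0.05). Its log2 change at ARS310 was -0.06 in HU. EdgeR called 1 of the 7 at 20 min, with 24.7% of all origin windows called. Limma with a replicate block for the pool called 4 of the 7 at 20 min, with 40.4% of all origin windows called, and 1 at 40 min, with 2.74% called, all of the members lower. The effect of *pol1-1A* on ARS310 with *mrc1-AQ cdc45-2A* minus that without it was -0.83 in HU (SE 0.25), -0.81 at 20 min and -0.67 at 40 min on the log2 scale, and this difference did not pass the test at any time (limma adjusted p = 0.0608, 0.0879 and 0.126).

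**Figure D2:**
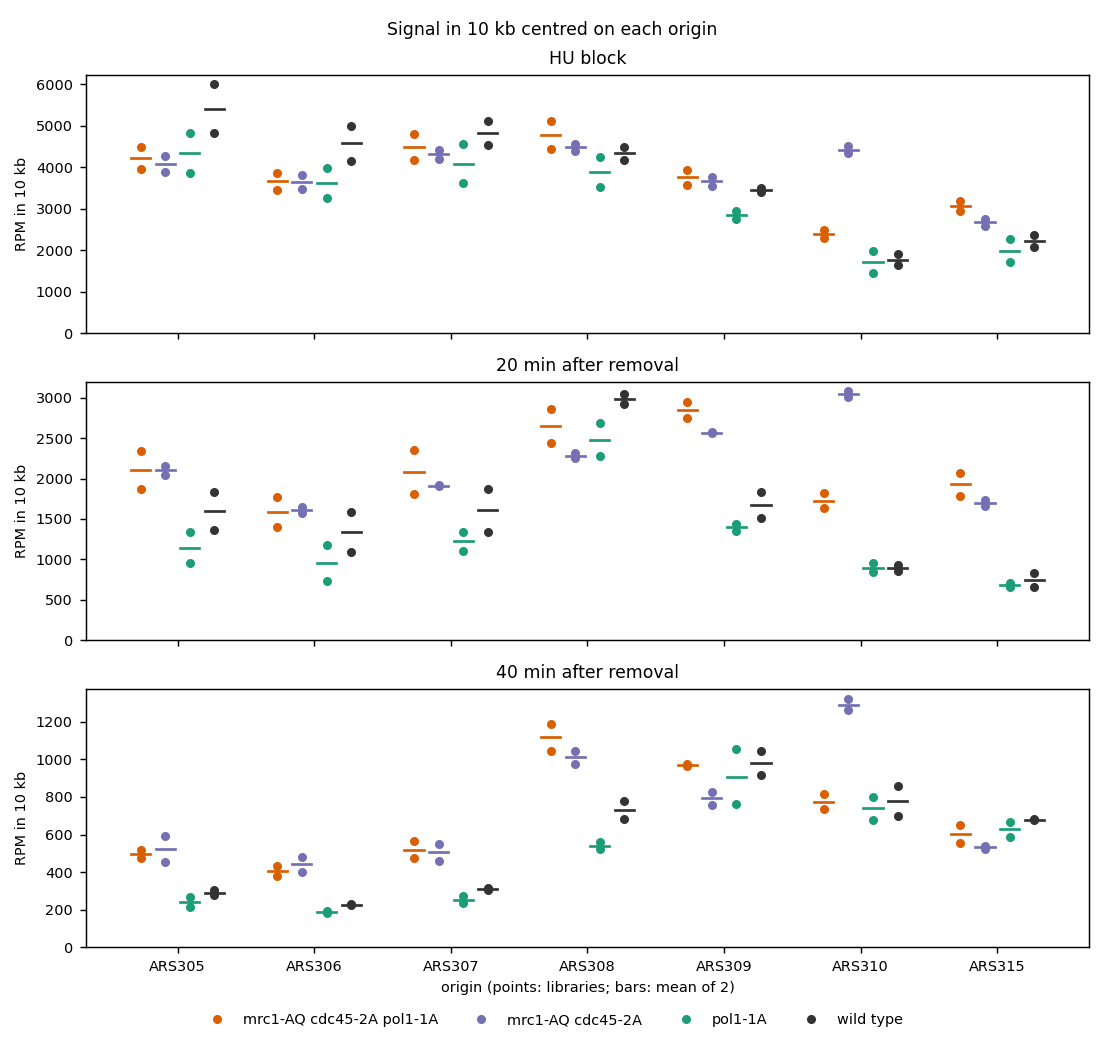
Signal in 10 kb centred on each of the 7 origins (RPM, axes from 0) in the HU block, at 20 and at 40 min, with a point for each library and a bar for the mean of 2 libraries of each strain. At ARS310 in HU the double mutant libraries sit at 4346 and 4504 RPM, above every library of the other strains there.

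The only 1 kb window of the genome called between the triple and the double mutant in HU lay left of the ARS310 window, from 158001 to 159000 bp over YCR023C, with 51.8 and 48.7 RPM in the triple mutant and 150.0 and 103 RPM in the double mutant (log2 change -1.29, SE 0.20, limma adjusted p = 0.0260). It made 1 of the 256 windows of the interval, with 0.0085% of all windows called, and it was not called by edgeR, by DESeq2 or under quantile normalization. The call was also lost without either triple mutant library and without replicate 1 of the double mutant (limma adjusted p from 0.347 to 0.776) and with only the 4 libraries compared (adjusted p = 0.0869), and its log2 change was -0.78 under quantile normalization, -0.67 with edgeR and -0.52 with DESeq2. No window passed at 20 or 40 min, with 0.0% and 0.0% of all windows called (limma, 28 and 39 of the 256 at an unadjusted p under 0.05), by edgeR 0 and 0 and by DESeq2 0 and 4. Quantile normalization called 2 and 12 windows, and a fit of only the 4 libraries 74 and 3.

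Blocking on the pool (a replicate block), which pairs libraries of the same pool, let 26 windows of the interval pass in HU, 24 of them lower in the triple mutant, and 15 of these lay between 152001 and 170000 bp. In this fit 6.02% of all windows were called in HU, and the median log2 change over all windows was -0.62, against a range of -2.15 to -0.59 over these 15. At 20 min 10 of the 11 windows called in the whole genome (0.0935%) lay between 152001 and 169000 bp, all lower in the triple mutant, and at 40 min 5 of 10 (0.085%) did. The 8 leftmost of these windows in HU were chosen by that call, so their values are a description. The run of 8 kb from 152001 to 160000 bp, left of ARS310, averaged 36.0 and 28.1 RPM per kb in the triple mutant in HU, 107 and 67.6 RPM in the double mutant, 74.4 and 33.6 RPM in *pol1-1A* and 58.4 and 39.8 RPM in the wild type. At 40 min it averaged 168 and 153 RPM per kb in the triple mutant, 315 and 296 RPM in the double mutant, 114.9 and 113 RPM in *pol1-1A* and 122 and 116 RPM in the wild type. At 40 min both triple mutant libraries stood above both wild type libraries.

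ARS315, the rightmost called origin, held less signal than the early group in HU in every strain. It had 1737 and 1662 RPM in 10 kb in the double mutant at 20 min, against 831 and 656 RPM in the wild type (log2 change 1.23, SE 0.18, limma adjusted p = 1.19e-11). In HU the values were 2578.5 and 2762 RPM in the double mutant and 2068 and 2371 RPM in the wild type (log2 change 0.29, limma adjusted p = 0.182), and at 40 min 538 and 526 RPM in the double mutant and 676 and 684 RPM in the wild type (log2 change -0.38, limma adjusted p = 0.0569). Only at 20 min did the test pass. In all, 5 of the 7 origins were called between the double mutant and the wild type at 20 min, ARS305, ARS309, ARS310 and ARS315 higher and ARS308 lower. Of all origin windows 74.0% were called then, in either direction. At 40 min 5 of the 7 were called, all higher. Of all origin windows 51.4% were called then in either direction, with a median log2 change of -0.04 over all of them.

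The call of ARS305 rested on 2050.1 and 2155 RPM in the double mutant, against 1836 and 1363 RPM in the wild type (log2 change 0.42, SE 0.17, limma adjusted p = 0.0235), and it was lost without wild type replicate 2 (adjusted p = 0.428) and without either double mutant library (adjusted p = 0.0608 and 0.126). The higher calls at 20 min depended on the scaling, since the median over all 146 origin windows was itself 0.74 higher in the double mutant. With edgeR, which centres on these windows, ARS305, ARS306 and ARS307 stood at -0.33, -0.46 and -0.48 on the log2 scale and were called lower (edgeR adjusted p = 0.00380, 0.00561 and 0.000139). DESeq2 (adjusted p = 0.00237, 0.00283 and 1.63e-05) and quantile normalization (limma adjusted p = 5.79e-06, 7.28e-07 and 9.37e-10) also called them lower. Under quantile normalization ARS315 stood at -0.32 and was not called. ARS310 stayed higher in the double mutant under every alternative that was run.

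Between ARS310 and ARS315 lies MAT, the locus whose alleles set the mating type. MAT itself could hardly be read: from 198801 to 201000 bp, over MATALPHA2, MATALPHA1 and the end of BUD5, 2 to 97 reads fell per library, all in a single 200 bp bin. MAT shares its sequence with the silent cassettes, and alpha factor arrests cells of the a mating type while the assembly carries the alpha alleles. The study also removed reads over regions present in several copies before it summed the windows. The part of these in the gap was not tested. The flanks of 10 kb on each side were read instead.

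The signal around MAT lay more on the left in the double and triple mutants and more on the right in *pol1-1A* and the wild type. In the left flank at 20 min the triple mutant had 491 and 369 RPM, the double mutant 779 and 594 RPM, *pol1-1A* 359 and 124 RPM and the wild type 195 and 112 RPM. In the right flank at 40 min the triple mutant had 367 and 262 RPM, the double mutant 658 and 542 RPM, *pol1-1A* 1362 and 1293 RPM and the wild type 1334 and 1242 RPM. The left to right ratio was above 1 in all 12 libraries of the double and triple mutants over the 3 times, up to 4.65, and 1.00 or lower in all 12 libraries of *pol1-1A* and the wild type, from 0.26 to 1.00. In asynchronous cells the ratio was 0.87 to 1.07.

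Within the left flank the double mutant at 40 min had 126 and 175 RPM in the 1 kb window at 192001 bp, 52.9 and 64.9 RPM at 194001 bp and 117 and 159 RPM at 195001 bp, against 43.2 and 28.6 RPM, 49.8 and 39.5 RPM and 56.4 and 38.8 RPM in the wild type. A second dip stood at 197001 bp, with 59.5 and 76.4 RPM in the double mutant, between 121 and 147 RPM at 196001 bp and 75.2 and 98.0 RPM at 198001 bp. The same dips stood in the triple mutant, with 40.8 and 45.2 RPM at 194001 bp and 46.6 and 52.2 RPM at 197001 bp at 40 min. The known origins ARS313 and ARS314 map near MAT, but no coordinates for them were at hand and the dips were chosen after their values were seen.

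Several 1 kb windows left of MAT or reaching into the MAT stretch passed the test. In HU, with 16.0% of all windows called higher, the windows starting at 193001, 195001, 196001 and 198001 bp were higher in the double mutant than in the wild type. At 20 min, with 27.3% called higher, 9 windows from 190001 to 200000 bp were, over SNT1, ELO2, RRP43, RBK1, PHO87, BUD5 and MATALPHA2. The last of them, from 199001 to 200000 bp, was also called at 40 min and lay inside the MAT stretch with almost no reads. That stretch held 33 and 34 reads in the double mutant at 20 min and 4 and 7 in the wild type. The window at 198001 bp reaches into it. At 40 min the largest rise of the interval lay in the left flank of MAT, from 191001 to 192000 bp over ELO2, a fatty acid elongase gene, and RRP43, which encodes an exosome subunit: 131.9 and 140.0 RPM in the double mutant, against 36.6 and 21.7 RPM in the wild type (log2 change 2.23, SE 0.56, limma adjusted p = 0.00703). This call was lost without wild type replicate 2 (adjusted p = 0.0804) and without replicate 2 of the double mutant (adjusted p = 0.0679).

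**Figure D3:**
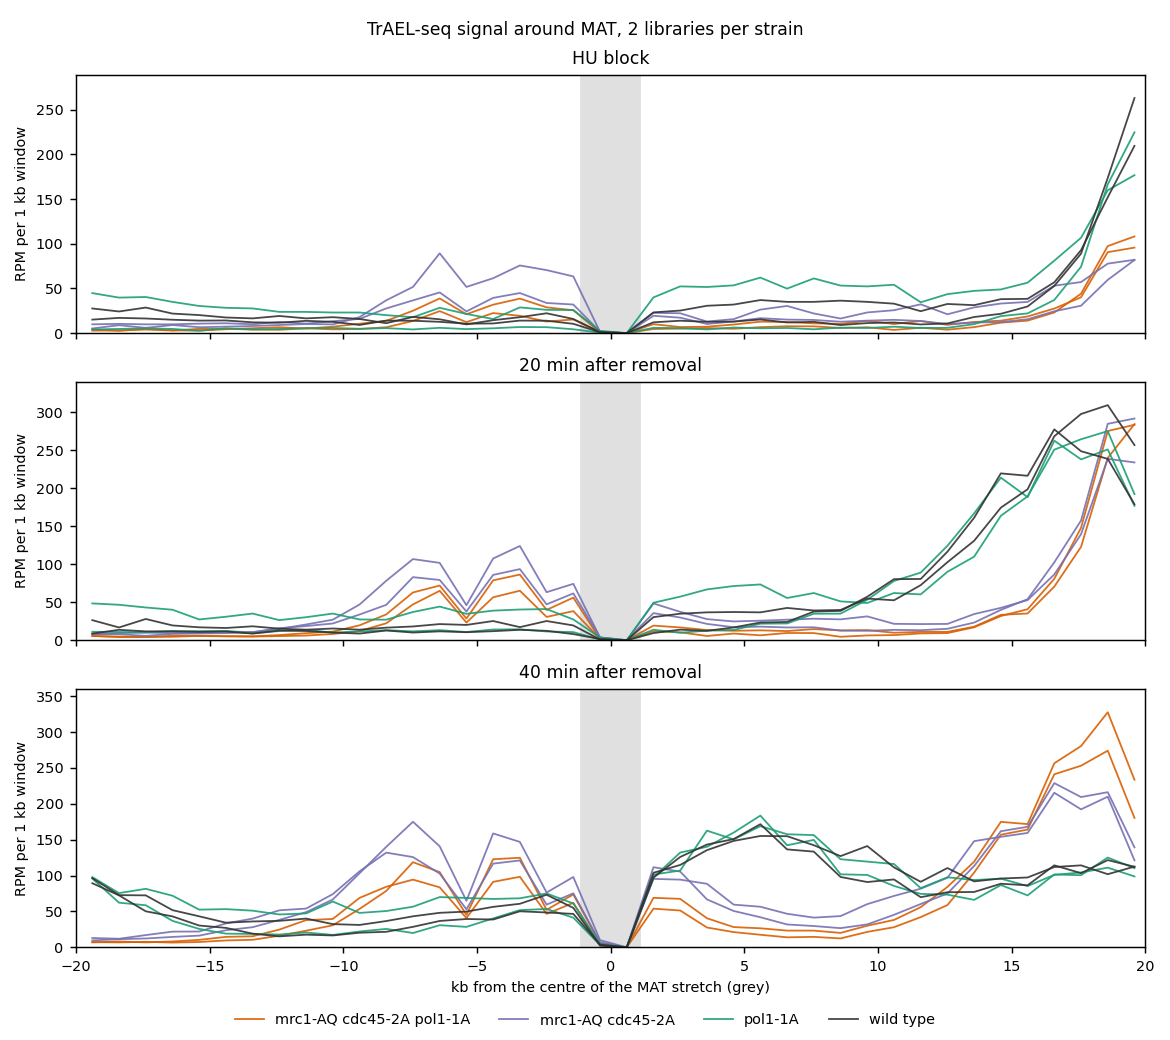
TrAEL-seq signal (RPM per 1 kb window, axes from 0) within 20 kb of the centre of the MAT stretch with almost no reads (grey), with 1 line for each of the 2 libraries of a strain and panels for the HU block, 20 and 40 min. At 40 min the double and triple mutant lines have 2 maxima with a dip between them within 10 kb left of MAT, and the *pol1-1A* and wild type lines stand higher within 10 kb right of it.

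A second stretch of this kind stood near the right end, where no origin was called in the wild type. Across the 12 kb from 266001 to 278000 bp, chosen as the longest run of higher windows at 20 min and therefore given without a test of its own, the HU block signal was 31.4 and 24.2 RPM per kb in the triple mutant, 50.8 and 37.5 RPM in the double mutant, 12.5 and 8.80 RPM in *pol1-1A* and 12.97 and 16.7 RPM in the wild type. At 20 min it was 55.6 and 45.1 RPM in the triple mutant, 86.0 and 67.1 RPM in the double mutant, 20.6 and 13.7 RPM in *pol1-1A* and 12.3 and 13.9 RPM in the wild type. At 40 min it was 68.5 and 75.6 RPM in the triple mutant, 94.6 and 103 RPM in the double mutant, 41.3 and 32.6 RPM in *pol1-1A* and 34.0 and 31.1 RPM in the wild type. The double mutant held the highest level at all 3 times, the triple mutant lay below it in both replicates, and both *pol1-1A* and the wild type lay below the double mutant. The largest rise at 20 min fell in this stretch, from 274001 to 275000 bp over KIN82, a protein kinase gene: 129 and 95.3 RPM in the double mutant, against 15.9 and 12.1 RPM in the wild type (log2 change 2.91, SE 0.40, limma adjusted p = 6.90e-06).

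The distance of the highest signal from each origin marks where fork signal was most abundant, not how far the foremost forks had moved. It was tested for the 9 of 14 forks with a single clear peak within 20 kb in the wild type HU block. Left out were the right fork of ARS307, both forks of ARS308, the left fork of ARS309 and the right fork of ARS310. In the HU block the median over the 9 forks was 2600 and 3000 bp in the triple mutant, 2200 and 2400 bp in the double mutant, 3200 and 3600 bp in *pol1-1A* and 3000 and 3400 bp in the wild type. Of the 9 forks 1 differed between the double mutant and the wild type in HU, the left fork of ARS315 (-1400 bp, SE 391 bp, limma adjusted p = 0.0255), with 15.2% of all 231 forks called. At 20 min the median was 4600 and 4800 bp in the double mutant and 6800 and 8200 bp in the wild type, and at 40 min 8000 bp in both double mutant libraries and 18200 bp in both wild type libraries. All 9 forks were closer to their origin in the double mutant at 20 min and all 9 at 40 min (limma), with 70.6% and 76.6% of all forks called.

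The right fork of ARS306 stood at 7200 bp in both double mutant libraries at 40 min, against 17600 and 17400 bp in the wild type (difference -10300 bp, SE 296 bp, limma adjusted p = 3.69e-13). The left fork of ARS310 stood at 6300 and 6500 bp in the double mutant, against 18500 bp in both wild type libraries (difference -12100 bp, SE 492 bp, limma adjusted p = 1.23e-11). The left fork of ARS315 stood at 7400 and 7600 bp in the double mutant, against 19400 and 19800 bp in the wild type (difference -12100 bp, SE 391 bp, limma adjusted p = 1.15e-12). The left fork of ARS307, the right fork of ARS309 and the other 4 were 6600 to 11400 bp closer. In all 9 the double mutant did not overlap with the wild type at 40 min, where 76.6% of all forks were called. The share of all forks without overlap is not given here. Distances near 20 kb are limited by the length read.

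Facing maxima were compared for 3 pairs of neighbouring origins at 40 min. ARS305 and ARS306 are 35400 bp apart, ARS306 and ARS307 34600 bp, and ARS309 and ARS310 33500 bp. In the triple mutant the highest windows between them were still 19600 and 18400 bp, 19200 and 19000 bp and 20000 and 19600 bp apart. In the double mutant they were 17800 and 17600 bp, 18800 and 17000 bp and 18200 and 19200 bp apart. In both *pol1-1A* and both wild type libraries the facing maxima of each pair were the same window, 0 bp apart. The stretches searched from both origins overlap, so a shared window does not show by itself that the forks had met, and it limits the distances that can be read in these strains. The last 2 of these gaps each hold a stretch mostly without reads in the deposited table, from 85201 to 90600 bp with the transposon gene YCL019W and from 148801 to 151400 bp beside tRNA genes, and reads over transposons and their repeats had been removed by the authors, and the shared maxima of the wild type stood within 2 kb of these stretches. Between ARS310 and ARS315, 59100 bp apart, the facing maxima were 49000 and 48800 bp apart in the double mutant and 32400 and 31600 bp apart in the wild type. The right fork of ARS310 was left out of the tests for want of a single clear peak. This gap also holds the double mutant maxima left of MAT, so these positions need not be forks that face each other.

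None of the 9 forks was called between the triple and the double mutant. In HU, at 20 min and at 40 min 0 of 9 passed, with 0.433%, 0.433% and 3.03% of all forks called (limma, 0, 0 and 1 of 9 at an unadjusted p under 0.05). At 40 min all 9 triple mutant means were closer to the origin, by 200 to 1000 bp, with a median of -600 bp over the 9 and -500 bp over all forks. The largest of these differences was at the left fork of ARS307, where the triple mutant stood at 8400 and 8600 bp and the double mutant at 8600 and 10400 bp (difference -1000 bp, SE 461 bp, limma adjusted p = 0.343). None of the 9 forks was called between the *pol1-1A* single mutant and the wild type either. Of all forks 0.0% were called in HU, 0.433% at 20 min and 0.433% at 40 min (limma, 0, 0 and 0 of 9 at an unadjusted p under 0.05).

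**Figure D4:**
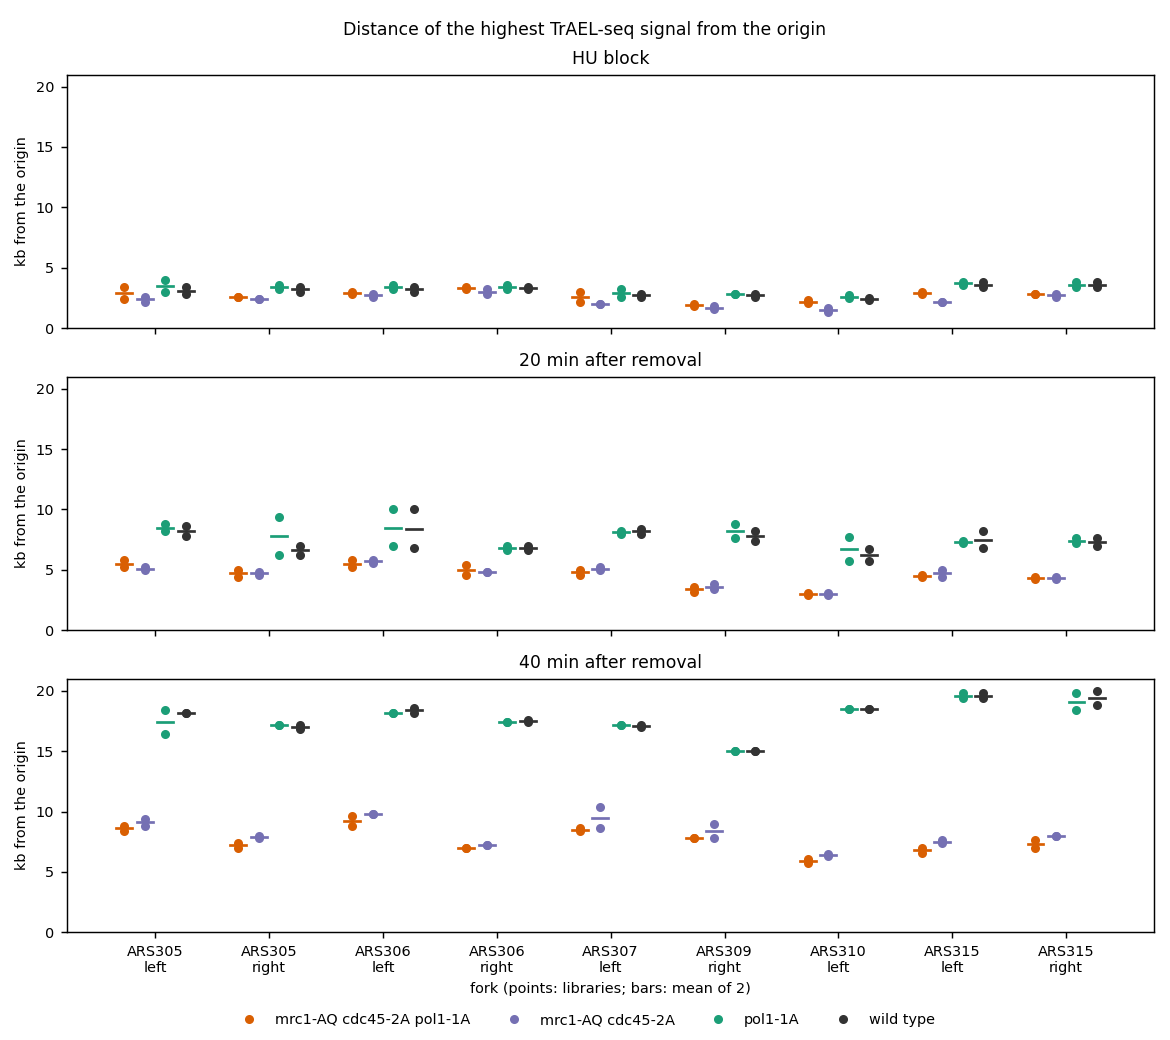
Distance of the highest signal from the origin (kb, axis from 0 to 21) for 9 forks, named by origin and side, with a point for each library and a bar for the mean of 2 libraries of each strain, in the HU block, at 20 and at 40 min. At 40 min the double and triple mutant points lie between 5700 and 10400 bp and those of *pol1-1A* and the wild type between 15000 and 20000 bp, with no overlap.

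Read over all 256 windows of 1 kb that held a read, the double mutant differed from the wild type in bands that followed the origins. In HU 34 windows were higher (16.0% of all 11768 windows of the genome were called higher) and 40 were lower (9.08% of all windows). The higher windows lay over the origin centres, from 130001 to 134000 bp at ARS309, from 163001 to 169000 bp at ARS310 and from 223001 to 228000 bp at ARS315, and in the stretches near MAT and from 269001 to 276000 bp. The lower windows lay on the outer slopes of the wild type peaks, such as 42001 to 48000 bp right of ARS305 and 65001 to 71000 bp left of ARS306. The largest fall was from 45001 to 46000 bp over EMC1, a gene of the endoplasmic reticulum membrane complex, with 80.9 and 81.9 RPM in the double mutant and 275 and 398 RPM in the wild type (log2 change -2.01, SE 0.21, limma adjusted p = 3.22e-07). The split of calls moved with the tool: edgeR called 32 higher and 8 lower, and DESeq2 33 higher and 17 lower.

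At 20 min 55 windows were higher (27.3% of all windows) and 73 lower (13.7% of all windows), and at 40 min 83 were higher (18.7% of all windows) and 45 lower (12.7% of all windows). The largest fall at 20 min was from 212001 to 213000 bp over ARE1, a sterol acyltransferase gene left of ARS315, with 21.5 and 15.0 RPM in the double mutant and 103 and 116 RPM in the wild type (log2 change -2.54, SE 0.66, limma adjusted p = 0.00359). At 40 min it was from 245001 to 246000 bp over SSK22, a kinase gene of the osmotic stress pathway right of ARS315, with 21.4 and 11.5 RPM in the double mutant and 169 and 159 RPM in the wild type (log2 change -3.30, SE 0.84, limma adjusted p = 0.00751), a call that was lost without replicate 2 of the double mutant (adjusted p = 0.0901) and without replicate 2 of the wild type (adjusted p = 0.0505). At 40 min the higher windows included the flanks of the early origins, from 40001 to 49000 bp, 65001 to 70000 bp and 100001 to 106000 bp. The lower windows included some midway between origins, from 54001 to 59000 bp, and the far sides of ARS310 (172001 to 183000 bp) and ARS315 (240001 to 252000 bp). Lower windows also lay beside the centres of ARS309 (129001 to 131000 bp and 133001 to 135000 bp) and ARS315 (222001 to 223000 bp and 226001 to 228000 bp). DESeq2 called 45 windows higher and 58 lower at 40 min, and 35 higher and 105 lower at 20 min, and without replicate 2 of the double mutant limma called 42 windows at 40 min.

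The *pol1-1A* single mutant gave 0 of 256 called windows at each time (limma, with 0.0% of all windows called in HU, 0.0% at 20 min and 0.0% at 40 min, and 3, 12 and 10 of the 256 at an unadjusted p under 0.05; edgeR and DESeq2 called 0). Replicate 1 of *pol1-1A* in HU stood apart from replicate 2 between the origins, with 529.8 and 56.3 RPM in the right flank of MAT. The wild type moved the same way between the same pools, with 322 and 123 RPM. Over all 1 kb windows the deviations of these 2 strains from their group means in HU correlated with r = 0.70. A fit without replicate 1 sets 1 pool of *pol1-1A* against both pools of the wild type, so its calls cannot be read as an effect of *pol1-1A*.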

How the data were processed

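TrAEL-seq libraries had been trimmed with Trim Galore 0.6.5 and aligned with Bowtie2 2.4.1 to R64 (submitters' processing notes). Reads over repeated regions (ribosomal DNA, transposons and their repeats, chromosome ends) had been removed by the authors, and the deposited table holds signal (RPM) that the authors computed in 2 kb running windows every 200 bp. From the step between low values whole reads were recovered for 100% of values (tolerance 0.01 reads), and these were resolved into 200 bp bins. Origins were placed midway in each pair of adjacent wild type HU maxima separated by 4 to 9 kb (profile smoothed over 15 windows, polynomial order 2), 145 in the genome with ARS310 added at a lower prominence. Fork distance was that of the highest smoothed window within 20 kb, tested for the 231 forks with a single clear peak there in the wild type HU block.

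Log2(RPM + 1) in 1 kb windows and 10 kb origin windows was tested with limma 3.58.1 (trended variance) and fork distances with limma, over the 24 HU libraries in 12 groups, genome-wide, with Benjamini-Hochberg adjusted p under 0.05. Fold changes on this scale understate low windows. The scripts were tested on simulated data. The median log2 change over all 1 kb windows was -0.25, 0.11 and 0.24 for the double mutant over the wild type (HU, 20 and 40 min), and -0.62, -0.44 and -0.23 for the triple over the double mutant. Alternatives included edgeR 4.0.16 and DESeq2 1.42.0 on the recovered counts. Libraries of 1 replicate number and time shared a pool per the labels, and their deviations from the group means correlated with r from 0.03 to 0.74 (median 0.44, over 0.1 in 17 of 18 pairs of groups, since both replicates give the same value). Named were the listed origins, MAT, called origins, and in each comparison the most changed called window in each direction that moved the same way in both replicates. The members and lists were chosen with earlier results of these data known. Genes came from RefSeq R64. No sequence is printed because no genome was used here.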

Additional observations from a re-analysis of the deposited data

Results flagged for a closer look

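The distance gained by forks after HU removal differed between the double mutant and the wild type by a test of the difference itself (limma, over 231 forks). Of all 231 forks, 176 were called between the HU block and 40 min and 67 between the HU block and 20 min, in either direction. Between the HU block and 40 min the double mutant forks gained less at all 9 forks: -8400 bp and -8300 bp left and right of ARS305, -8100 bp and -10000 bp left and right of ARS306, -6900 bp left of ARS307, -5600 bp right of ARS309, -11200 bp left of ARS310, and -10700 bp and -10500 bp left and right of ARS315 (highest adjusted p = 4.83e-05). The facing forks of ARS305 and ARS306, ARS306 and ARS307, and ARS309 and ARS310 shared wild type maxima at 40 min. Their values are thus not independent and are limited by the origin spacing. Between the HU block and 20 min 6 of the 9 passed: -2400 bp left of ARS305, -1700 bp right of ARS306, -2400 bp left of ARS307, -3200 bp right of ARS309, -2300 bp left of ARS310 and -2100 bp right of ARS315 (highest adjusted p = 0.0446). At ARS308 the effect of *pol1-1A* on the 10 kb signal at 40 min was 0.57 higher on the log2 scale with *mrc1-AQ cdc45-2A* than without it (SE 0.18, limma adjusted p = 0.0422). In asynchronous cells the lowest of the 6 libraries at ARS315, 352 RPM, stood apart from the others (438 to 481 RPM). Chance flags about 1 in 20 such groups, and 7 were looked at.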

How the results depend on the processing

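The count of called 1 kb windows between the double mutant and the wild type moved by over 1.5 times in HU with edgeR (40) and with 2 kb windows (41 of 130), at 20 min with 2 kb windows (64) and at 40 min with 2 kb windows (71), where fewer windows exist to be called. Leaving out 1 library gave 48 to 61 windows in HU and 42 to 84 at 40 min. For the triple against the double mutant the 1 window in HU became 0 under quantile normalization, 0 with edgeR, 0 with DESeq2, 26 with the pool as a replicate block and 5 with only the 4 libraries compared, and 0 to 1 without 1 library. The 0 at 20 min became 2 under quantile normalization, 10 with the replicate block and 74 with only the 4 libraries, and the 0 at 40 min became 12, 5 and 3, and 4 with DESeq2. For *pol1-1A* against the wild type in HU leaving out 1 library gave 0 to 57.

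Of the 7 origins, the 1 called between the double mutant and the wild type in HU became 2 under quantile normalization, 3 with edgeR, 3 with DESeq2, 4 with the replicate block, 3 with the 4 libraries, 3 in 6 kb and 1 to 2 without 1 library. At 40 min 5 became 3 under quantile normalization, and at 40 min against HU in the double mutant 7 became 4 with edgeR and 4 with DESeq2. The 0 of 9 forks between the triple and the double mutant at 40 min became 0 to 1 without 1 library.

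At 20 min the change of the double mutant over the wild type turned negative at ARS305 (-0.66 under quantile normalization, -0.33 with edgeR, -0.37 with DESeq2), ARS306 (-1.13, -0.46, -0.50), ARS307 (-1.03, -0.48, -0.52), ARS309 (-0.093 with edgeR, -0.13 with DESeq2) and ARS315 (-0.32 under quantile normalization), and at 40 min at ARS307 (-0.052 under quantile normalization). The cause was not tested. ARS310 kept its direction in every alternative of both mutant comparisons. The replicate block left 9, 9 and 0 of the 9 forks called between the double mutant and the wild type at 20 and 40 min and between the triple and the double mutant at 40 min, as without it. With 2 libraries per group the spread is estimated across groups, and origin positions rest on the wild type alone.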
